A study of Mus musculus with 6 samples.

Results

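The 9 genes described here build, bind or break down hyaluronan. They were taken by name from the deposited count table, whose 55335 rows were matched to GENCODE M21 symbols, and each of the 9 names matched 1 row. Has1, Has2 and Has3 encode the synthases, Hyal1, Hyal2 and Hyal3 encode hyaluronidases, and Tnfaip6 (TSG-6), Ptx3 (pentraxin 3) and Vcan (versican) encode proteins that bind or cross-link hyaluronan. The samples were bone marrow-derived macrophages (BMDMs) from C57BL/6 mice with no engineered allele, grown for 6 d with 10% fetal bovine serum and 20% medium conditioned by L929 cells, a mouse fibroblast line that supplies the growth factor CSF1. The 3 control libraries came from cells given PBS and the other 3 from cells given lipopolysaccharide (LPS), the outer membrane glycolipid of Gram-negative bacteria, and the cells were harvested after 1 h for total RNA. The study used male mice, and the labels number the libraries of each group 1 to 3 as batches without saying whether they came from separate animals, so the p-values measure the spread between these libraries only. The LPS dose was not given in the sources used here.

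Hyaluronan is a long, unsulfated glycosaminoglycan that synthases in the plasma membrane extrude into the pericellular space while joining 2 nucleotide sugars made in the cytosol. It is cut by hyaluronidases and finished in lysosomes by exoglycosidases. TSG-6 moves protein heavy chains from inter-alpha-inhibitor onto hyaluronan, pentraxin 3 binds those heavy chains and stabilises the resulting matrix, and versican anchors to the chain through its own hyaluronan-binding domain. In inflamed tissue such matrices hold leukocytes, which attach mainly through CD44.

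In brief, 4 of the 9 genes rose within 1 h of LPS: the matrix binders Tnfaip6, Ptx3 and Vcan, and the synthase Has1. Hyal1 and Hyal2 were lower after LPS by less than a 2-fold change, Hyal3 did not pass the test, and Has2 and Has3 had too few counts for it. A gene is said to have risen or fallen when edgeR's quasi-likelihood test gave an adjusted p under 0.05, corrected over 15687 tested genes, together with an absolute log2 fold change above 1. By that rule 10.5% of the tested genes rose and 10.4% fell, so 4 rises and 0 falls among the 7 tested members stand beside a background of about 1 gene in 10 in either direction. The members' median log2 fold change was 1.70, against -0.013 over all tested genes. Has1, Tnfaip6 and Ptx3 passed the low-count filter only through the LPS libraries, so they had to differ to be tested at all, and neither that count nor that median is support for the group as a whole.

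The sequence just before the start of 3 of the induced genes is shown because these genes had few or no transcripts in PBS libraries. RefSeq windows on GRCm38.p6, 300 bases long with 250 before and 50 after each start, were held for 7 of the 9 members (Has2 and Has3 had none). The windows were searched on both strands for AP-1 (TGANTCA), CRE (TGACGTCA), C/EBP (TTNNGNAA), the TATA box (TATAAA) and the NF-kB consensus. Of all 32851 windows of this length, 7.81% held the AP-1 letters, 1.79% the CRE, 40.7% the C/EBP letters, 13.6% the TATA box and 8.46% the NF-kB consensus. Capitals mark a match, and each stretch ends before the first base that RefSeq or GENCODE places in the gene. The stretches run 5′ to 3′ on the strand of the gene and lie at chr17:17855206-17855438 (minus strand) for Has1, chr2:52037863-52038008 (plus strand) for Tnfaip6 and chr3:66219637-66219886 (plus strand) for Ptx3.
Has1: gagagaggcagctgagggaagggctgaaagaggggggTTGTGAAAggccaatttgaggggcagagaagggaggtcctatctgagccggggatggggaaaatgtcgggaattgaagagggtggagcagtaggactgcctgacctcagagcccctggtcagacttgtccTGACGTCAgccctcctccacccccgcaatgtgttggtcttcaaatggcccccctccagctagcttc
Tnfaip6: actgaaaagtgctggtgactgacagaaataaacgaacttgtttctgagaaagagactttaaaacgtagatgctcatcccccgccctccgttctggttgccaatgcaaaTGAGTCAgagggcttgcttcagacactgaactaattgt
Ptx3: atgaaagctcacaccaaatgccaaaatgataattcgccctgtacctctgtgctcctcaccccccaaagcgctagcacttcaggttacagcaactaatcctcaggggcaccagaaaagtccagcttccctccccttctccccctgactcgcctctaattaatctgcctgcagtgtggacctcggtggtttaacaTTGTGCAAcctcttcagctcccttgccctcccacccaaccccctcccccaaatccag

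The Has1 stretch held a CRE at positions -83 to -76 from the RefSeq start (position 0) and a C/EBP match at -213 to -206. The Tnfaip6 stretch held an AP-1 match at -142 to -136. In Ptx3 a C/EBP match lay at -57 to -50, and a pair of NF-kB matches that overlap each other, together GGGGAACTCCC, lay at -1 to 9, starting on the last printed base. Further C/EBP matches lay across the RefSeq start of Has1 (-4 to 3) and at -108 to -101 of Tnfaip6, across the start that GENCODE gives; no other matches overlapped. The Vcan and Hyal1 windows held none of the 5 motifs, while the Hyal2 window held the NF-kB letters and the Hyal3 window a C/EBP match. These matches in Hyal2 and Hyal3 lie inside the gene, downstream of the start that GENCODE gives. A match describes letters and does not show that a factor bound there.

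The libraries held 37787611 to 41516330 counts, and a floor of 3 counts corresponded to 0.0630 to 0.0919 CPM, the count scaled to a common library size with edgeR's TMM factors; this floor covers counting error only. The mean scaling factor was 1.15 in PBS and 0.869 in LPS libraries. Scaling by library size alone shifted the median over tested genes by -0.40 (log2) and upper quartile scaling moved it by -0.14, so the values below are relative to the TMM baseline. Tnf, the standard LPS-response gene, rose by 6.83 on the log2 scale (SE 0.05, edgeR adjusted p = 4.99e-24). Of 7 macrophage markers none rose or fell by the rule above, and their summed level was 29531 to 30806 CPM in PBS and 32270 to 32620 CPM in LPS libraries. Summed markers of other cells were lower. The 8 stromal markers summed to 15.0 to 16.3 CPM in PBS and 18.2 to 21.5 CPM in LPS libraries. Of these, 1 (Pdgfrb) rose. The 4 monocyte markers summed to 271 to 283 CPM in PBS and 190 to 219 CPM in LPS libraries. The 3 endothelial markers summed to 33.5 to 36.6 CPM and 42.4 to 45.7 CPM. Such sums do not measure the share of reads from other cells. The stromal sum over 8 genes exceeded the level of each induced member after LPS. Single stromal markers were lower than that sum, with Col1a2 the highest at 5.37 CPM after LPS. Pdgfrb averaged 1.31 CPM in PBS and 3.27 CPM in LPS libraries.

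Has1 is the synthase whose expression is typically low and inducible by cytokines. Its gene (ENSMUSG00000003665.7) lies at 17843323 to 17855205 of chromosome 17 on the minus strand. It had 0 counts in each of the 3 PBS libraries, and 29, 21 and 17 counts in LPS replicates 1, 2 and 3. The groups did not overlap. After LPS the mean was 0.669 ± 0.184 CPM (SD, n = 3), which is at least 10.3-fold higher than 3 counts per PBS library. The call held in edgeR's test (adjusted p = 2.77e-07), whereas the fitted log2 fold change of 7.74 depends on how a count of 0 is handled and is no measure of size. The plus-strand gene Spaca6 ends 313 bp beyond the 3′ end of Has1. Spaca6 had 738, 719 and 737 counts in the PBS libraries, in which Has1 had none, and rose by 1.43 on the log2 scale (SE 0.05, edgeR adjusted p = 7.15e-15). Fpr1, a formyl peptide receptor gene 21265 bp upstream of Has1, was higher by 0.51 (SE 0.08, edgeR adjusted p = 3.23e-05), short of the fold criterion.

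Has2, usually the main synthase of mesenchymal cells, had 3, 1 and 0 counts in PBS and 5, 6 and 6 counts in LPS libraries. Every LPS library was above every PBS library, but Has2 did not pass the low-count filter. The ratio of levels was 5.98, with a 95% counting interval of 1.92 to 24.1. In a fit without the filter the log2 fold change was 2.41 (SE 0.83, edgeR adjusted p = 0.0102). Without PBS replicate 3 the log2 fold change was 1.88 (edgeR adjusted p = 0.0741) and without LPS replicate 2 it was 2.36 (edgeR adjusted p = 0.0559), so the direction held and the call did not. Without PBS replicate 1 the log2 fold change was 3.58. These fits without 1 library were chosen after the values were seen. The antisense gene Has2os, which overlaps 182 bp of Has2 exons, had 0 counts in all 6 libraries.

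Has3, which makes shorter hyaluronan chains, had 0, 2 and 5 counts in PBS and 4, 2 and 6 counts in LPS libraries. The groups overlapped, and the ratio of 2.34 had a 95% counting interval of 0.863 to 7.12, so no difference was detectable at this depth. On the other strand, Chtf8 shares 352 bp of Has3 exon and had a log2 fold change of 0.21 (edgeR adjusted p = 0.343). Per kilobase of annotated exon (RPKM, from TMM-scaled counts), Has1 stood at 0.148 ± 0.0406, Has2 at 0.0400 ± 0.00432 and Has3 at 0.0186 ± 0.00901 in LPS libraries (SD, n = 3 each). Has1 was thus the most abundant of the 3 synthase transcripts after LPS, above both others in every LPS library, with at most 29 counts in any of them.

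**Figure D1:**
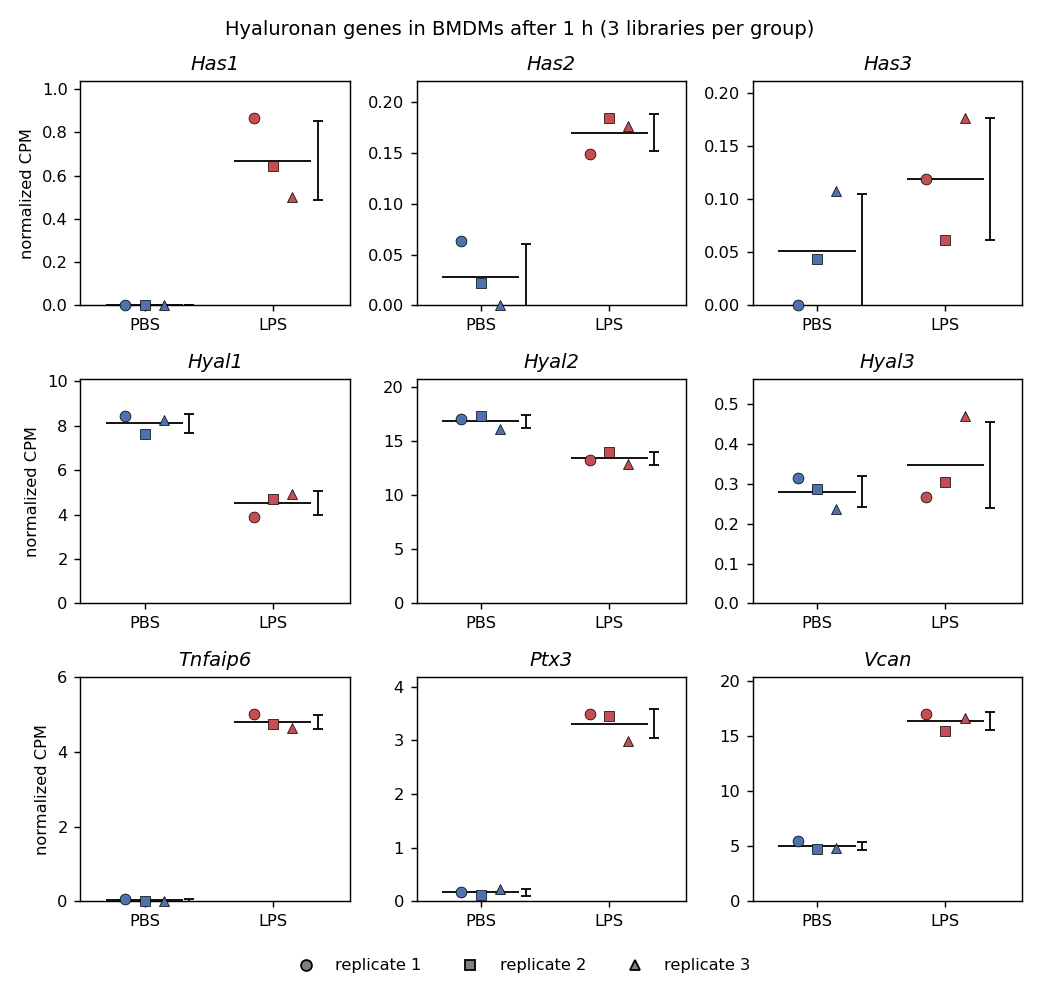
Normalized CPM (y axes, linear, each on its own scale) of the 9 hyaluronan genes in 3 PBS and 3 LPS libraries, with marker shape giving the replicate number, a horizontal line the mean and the bar beside it the SD. Has1, Tnfaip6, Ptx3 and Vcan lie higher in all LPS libraries, Hyal1 and Hyal2 lie lower in all of them, and the groups overlap for Has3 and Hyal3; Has2 does not overlap but has at most 6 counts per library.

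Among the binders, Tnfaip6 changed most in fold. It encodes TSG-6, which transfers heavy chains to hyaluronan, and its gene (ENSMUSG00000053475.5) lies at 52038009 to 52056686 of chromosome 2 on the plus strand. It had 3, 0 and 1 counts in PBS and 168, 155 and 158 counts in LPS libraries. No PBS library exceeded the floor, and the LPS libraries were close to one another at 4.80 ± 0.187 CPM (SD, n = 3). The ratio of levels was 170, with a 95% counting interval of 64.7 to 614, set by the 4 counts in PBS. The log2 fold change was 7.23 (SE 0.29, edgeR adjusted p = 1.93e-13). It was 8.40 without PBS replicate 1, the library with 3 counts, and 6.71 without PBS replicate 2. The nearest tested genes on either side, Nmi at 64514 bp and Rif1 at 16145 bp, had log2 fold changes of -0.19 and -0.10.

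Ptx3 encodes a long pentraxin that opsonises microbes and cross-links heavy chain-modified hyaluronan. Its gene (ENSMUSG00000027832.5) lies at 66219910 to 66225805 of chromosome 3 on the plus strand, inside the span of Veph1 on the other strand. It had 8, 5 and 11 counts in PBS and 117, 113 and 102 counts in LPS libraries. The groups were far apart, at 0.172 ± 0.0639 CPM against 3.31 ± 0.276 CPM (SD, n = 3 each). The log2 fold change was 4.24 (SE 0.23, edgeR adjusted p = 1.23e-11), with a range of 4.01 to 4.53 over the fits that omitted 1 library. Veph1 had 0 counts in every library.

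Vcan encodes versican, a large chondroitin sulfate proteoglycan of provisional matrix. Its gene (ENSMUSG00000021614.16) lies at 89655312 to 89742509 of chromosome 13 on the minus strand. It had 259, 215 and 223 counts in PBS and 569, 504 and 565 counts in LPS libraries. Unlike the other 3 induced members, it was well above the floor before LPS. Levels averaged 5.01 ± 0.373 CPM in PBS and 16.3 ± 0.791 CPM after LPS (SD, n = 3 each), a ratio of 3.26. The log2 fold change was 1.70 (SE 0.08, edgeR adjusted p = 1.58e-12), and it was 1.30 with scaling by library size alone. Gene counts do not separate the splice forms of versican. The overlapping antisense gene Gm4117, which shares no exonic base with Vcan, had a log2 fold change of -0.44 (SE 0.15, edgeR adjusted p = 0.0132). Versican is also expressed by monocytes and stromal cells. The summed level of 4 monocyte markers was lower after LPS (271 to 283 CPM in PBS, 190 to 219 CPM in LPS libraries), that of the stromal markers was higher as given above, and their part in the Vcan result was not tested. In bulk RNA a change in the share of expressing cells and a change in RNA per cell cannot be told apart.

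The hyaluronidase genes sit together on chromosome 9, all on the plus strand. Hyal2, a GPI-anchored enzyme that makes the first cuts at the cell surface, spans 107567945 to 107572779. It had 813, 781 and 745 counts in PBS and 446, 458 and 438 counts in LPS libraries. Its level was 16.8 ± 0.606 CPM in PBS and 13.4 ± 0.588 CPM in LPS libraries (SD, n = 3 each), and the groups did not overlap. The log2 fold change was -0.33 (SE 0.06, edgeR adjusted p = 1.56e-04), a difference larger than the replicate spread but short of the fold criterion.

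Hyal1, the lysosomal hyaluronidase, spans 107576927 to 107581710. It had 401, 344 and 382 counts in PBS and 131, 154 and 168 counts in LPS libraries. All LPS libraries were lower, at 4.52 ± 0.544 CPM against 8.10 ± 0.431 CPM in PBS (SD, n = 3 each), a level 1.79-fold lower. The log2 fold change was -0.84 (SE 0.10, edgeR adjusted p = 6.58e-07). It was -1.25 with scaling by library size alone, which carried Hyal1 past the fold criterion as a fall. Of the 3777 exonic bases of Hyal1, 1920 are also exonic in Naa80 on the same strand, an N-terminal acetyltransferase gene, so reads in 50.8% of the annotated exon could not be given to either gene by position alone. Naa80 had a log2 fold change of -0.62 (SE 0.08, edgeR adjusted p = 2.96e-06), and how the shared reads were counted was not given in the sources used here. The antisense gene Gm16343, which covers Hyal1 without sharing an exon, had 4, 1 and 2 counts in PBS and 0 counts in LPS libraries.

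The ratio of Hyal1 to Hyal2 counts within a library does not depend on scaling. On the log2 scale it was -1.02, -1.18 and -0.96 in PBS and -1.77, -1.57 and -1.38 in LPS libraries. All LPS ratios were below all PBS ratios, with a mean difference of -0.52. The ratio of Hyal1 to Naa80, which shares its exons, differed by -0.23 in the same way. Both pairs were chosen with their values known, so the ratios are a description with no test.

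Hyal3, a family member of uncertain enzymatic activity, had 15, 13 and 11 counts in PBS and 9, 10 and 16 counts in LPS libraries. The groups overlapped, and the log2 fold change of 0.31 (SE 0.35, edgeR adjusted p = 0.447) had a 95% interval from -0.43 to 1.05. With scaling by library size alone the value was -0.089. Of its 1948 exonic bases, 159 are shared with Hyal1 and 118 with Naa80. The genes that border the cluster, Tusc2 and Ifrd2, had log2 fold changes of -0.50 (SE 0.06, edgeR adjusted p = 9.58e-07) and -0.42 (SE 0.10, edgeR adjusted p = 9.09e-04), in the range of Hyal1, Hyal2 and Naa80.

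**Figure D2:**
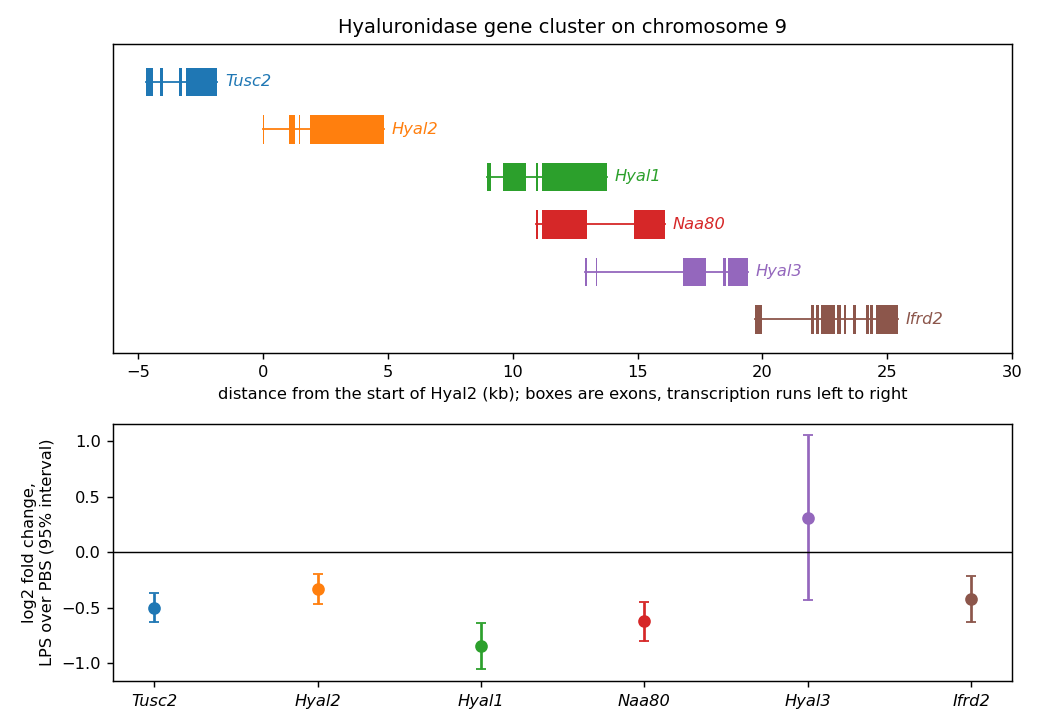
Upper panel, the hyaluronidase gene cluster drawn to scale from GENCODE M21, with exons as boxes and distance from the start of Hyal2 in kb on the x axis; lower panel, the log2 fold change of each gene (y axis, LPS over PBS) with its 95% interval. Hyal1 shares much of its last exons with Naa80, and the 5 genes other than Hyal3 lie between -0.33 and -0.84.

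Of the 7 tested members, 6 had groups that did not overlap, and Hyal3 was the exception. Such separation was common here, as it held for 70.5% of all tested genes. Per kilobase of exon, the order of levels in PBS libraries began with Hyal2 (5.11 ± 0.184 RPKM), Hyal1 (2.14 ± 0.114 RPKM) and Vcan (0.346 ± 0.0258 RPKM), followed by Hyal3, Ptx3 and Tnfaip6. After LPS, Hyal2 (4.07 ± 0.179 RPKM) and Tnfaip6 (2.80 ± 0.109 RPKM) led, and Ptx3 (1.24 ± 0.103 RPKM), Hyal1 (1.20 ± 0.144 RPKM) and Vcan (1.13 ± 0.0547 RPKM) followed within their spread of one another. Hyal3 (0.179 ± 0.0550 RPKM) and Has1 did not differ beyond their spread either. Thus Tnfaip6 moved from near the floor to the level next below Hyal2, on this scale of level per length. The Hyal1 value divides by all its exonic bases, 50.8% of them shared with Naa80. Its place beside Ptx3 and Vcan may therefore depend on how shared reads were counted.

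The other genes of the pathway were read from a list of 43 genes, 23 of them above the low-count filter. In this list 10 genes rose, 0 fell and 13 did not pass both criteria, beside the 10.5% and 10.4% of all tested genes. With scaling by library size alone 7 genes rose and 1 fell (Gnpnat1), and with upper quartile scaling 9 rose. The median log2 fold change was 0.59, against -0.013 over all tested genes. Gfpt2, Ambp, Itih1, Hapln3, Adamts4 and Adamts9 entered the test only through the LPS libraries, so they had to differ to be tested at all. Neither the count of rises nor that median is therefore support for the list as a whole.

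Precursor enzymes came first in that list. Of 7, the 2 that rose were Gfpt2 and Uap1. Gfpt2 is an isoform of the enzyme that commits fructose 6-phosphate to hexosamines, and it had 1, 1 and 2 counts in PBS and 35, 37 and 62 counts in LPS libraries. It rose by 5.39 on the log2 scale (SE 0.45, edgeR adjusted p = 5.75e-09), and the ratio of 46.2 had a 95% counting interval of 17.7 to 173. Gfpt1, the other isoform, averaged 34.6 CPM in PBS and 50.8 CPM after LPS, higher by 0.55 on the log2 scale (SE 0.04, edgeR adjusted p = 1.04e-09). Scaling by library size alone gave 0.15 for Gfpt1.

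Uap1, which makes UDP-N-acetylglucosamine in the last step of that route, averaged 21.1 ± 0.990 CPM in PBS and 55.9 ± 3.20 CPM after LPS (SD, n = 3 each), and rose by 1.40 on the log2 scale (SE 0.05, edgeR adjusted p = 4.2e-14). With scaling by library size alone it stood at 1.00, just under the criterion. Of the enzymes between them, Gnpnat1 had a log2 fold change of -0.61 (SE 0.09, edgeR adjusted p = 5.82e-06) and Pgm3 one of 0.15 (SE 0.07, edgeR adjusted p = 0.0604). With scaling by library size alone Gnpnat1 stood at -1.01, past the fold criterion as a fall, and Pgm3 turned to -0.25. On the glucuronic acid side, Ugdh, which oxidises UDP-glucose, was higher by 0.59 (SE 0.04, edgeR adjusted p = 8.83e-10), short of the fold criterion. Ugp2 had a value of -0.028 (SE 0.04, edgeR adjusted p = 0.576). Scaling by library size alone gave 0.19 for Ugdh and -0.43 for Ugp2.

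Of 6 receptor genes, 5 were tested and Cd44 alone rose. Cd44, the main hyaluronan receptor of leukocytes, had 8838, 8111 and 8896 counts in PBS and 37352, 34682 and 38704 counts in LPS libraries. Levels averaged 186 ± 6.64 CPM in PBS and 1104 ± 38.1 CPM after LPS (SD, n = 3 each), so Cd44 rose by 2.57 on the log2 scale (SE 0.04, edgeR adjusted p = 7.58e-20). Stab1, which encodes a scavenger receptor, was the most abundant gene of the list at 1589 CPM in PBS and 1716 CPM in LPS libraries. Its log2 fold change of 0.11 turned to -0.29 with scaling by library size alone and to -0.031 with upper quartile scaling. Layn had a log2 fold change of 0.80 (SE 0.09, edgeR adjusted p = 3.02e-07), and Hmmr one of -0.23 (SE 0.10, edgeR adjusted p = 0.0539). Lyve1, below the filter, had 0 counts in PBS and 7, 7 and 4 counts after LPS, a level at least 2.78-fold higher than the PBS floor.

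Of 9 listed degradation genes outside the members, 5 were tested and 2 rose. Among the members, Hyal2 at the cell surface and lysosomal Hyal1 were both lower, as given above. The cell surface protein Cemip2, reported to cleave hyaluronan, averaged 41.3 ± 1.66 CPM in PBS and 153 ± 2.63 CPM after LPS (SD, n = 3 each), and rose by 1.89 on the log2 scale (SE 0.04, edgeR adjusted p = 4.5e-18). Its relative Cemip had only 13 to 18 counts per PBS library and 19 to 27 per LPS library, and its log2 fold change of 1.03 (SE 0.28, edgeR adjusted p = 0.00384) fell under 1 with library size or upper quartile scaling (0.63 and 0.89), without PBS replicate 2 (0.94) and without LPS replicate 1 (0.89). The lysosomal exoglycosidase genes Hexa and Gusb, at 1177 and 490 CPM in PBS libraries, had log2 fold changes of 0.051 and 0.17. These were -0.35 and -0.24 with scaling by library size alone, and that of Hexa was -0.091 with upper quartile scaling. The other genes of the hyaluronidase family, Hyal4, Hyal5, Hyal6 and Spam1, had 0 counts in all libraries.

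**Figure D3:**
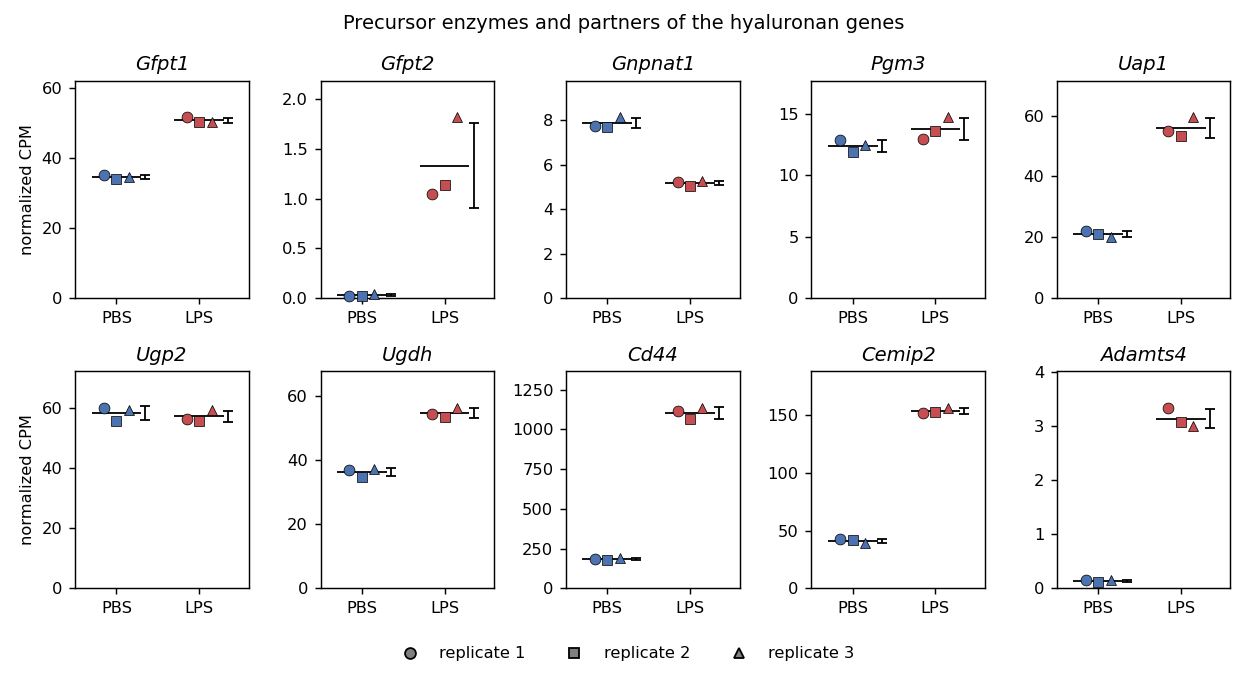
Normalized CPM (y axes, linear, each on its own scale) in 3 PBS and 3 LPS libraries for the 7 precursor enzyme genes and for Cd44, Cemip2 and Adamts4, with marker shape giving the replicate number, a horizontal line the mean and the bar beside it the SD. Gfpt1, Gfpt2, Uap1, Ugdh, Cd44, Cemip2 and Adamts4 are higher in every LPS library by more than the spread within groups. Pgm3 is higher in every LPS library by a narrow margin, Gnpnat1 is lower, and Ugp2 overlaps.

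The partners of TSG-6 and versican were scarce. This part of the list held 6 genes, Ambp and the family Itih1 to Itih5. Ambp, which encodes bikunin, the light chain of inter-alpha-inhibitor, rose from 3, 4 and 2 counts to 27, 31 and 27 counts. Its log2 fold change was 3.65 (SE 0.37, edgeR adjusted p = 9.75e-08). Itih1, which encodes a heavy chain, had 0 counts in PBS and 13, 10 and 11 counts after LPS, a level at least 5.23-fold higher than the PBS floor (edgeR adjusted p = 5.53e-06). Itih2, Itih3 and Itih4 had at most 2 counts in any library and Itih5 had 4 to 8, and heavy chain protein taken up from serum would not be seen in RNA.

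Hapln3, a link protein gene, rose from 5, 11 and 7 counts to 17, 13 and 21 counts, a log2 fold change of 1.60 (SE 0.37, edgeR adjusted p = 0.00106). The related lecticans and link proteins (Acan, Bcan, Ncan, Hapln1, Hapln2 and Hapln4) had at most 3 counts in any library. The short pentraxin genes Crp and Apcs had 0 counts throughout, in contrast to Ptx3.

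Among 6 genes of proteases that cut versican, Adamts4 rose most, from 7, 5 and 7 counts to 112, 100 and 102 counts, a log2 fold change of 4.49 (SE 0.22, edgeR adjusted p = 3.91e-12). Adamts9 rose by 1.34 (SE 0.38, edgeR adjusted p = 0.00474) at no more than 21 counts per library, and stood at 0.94 with scaling by library size alone. Adamts1 had a log2 fold change of 0.41 (SE 0.13, edgeR adjusted p = 0.0123), short of the fold criterion and 0.0040 with scaling by library size alone.

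**Figure D4:**
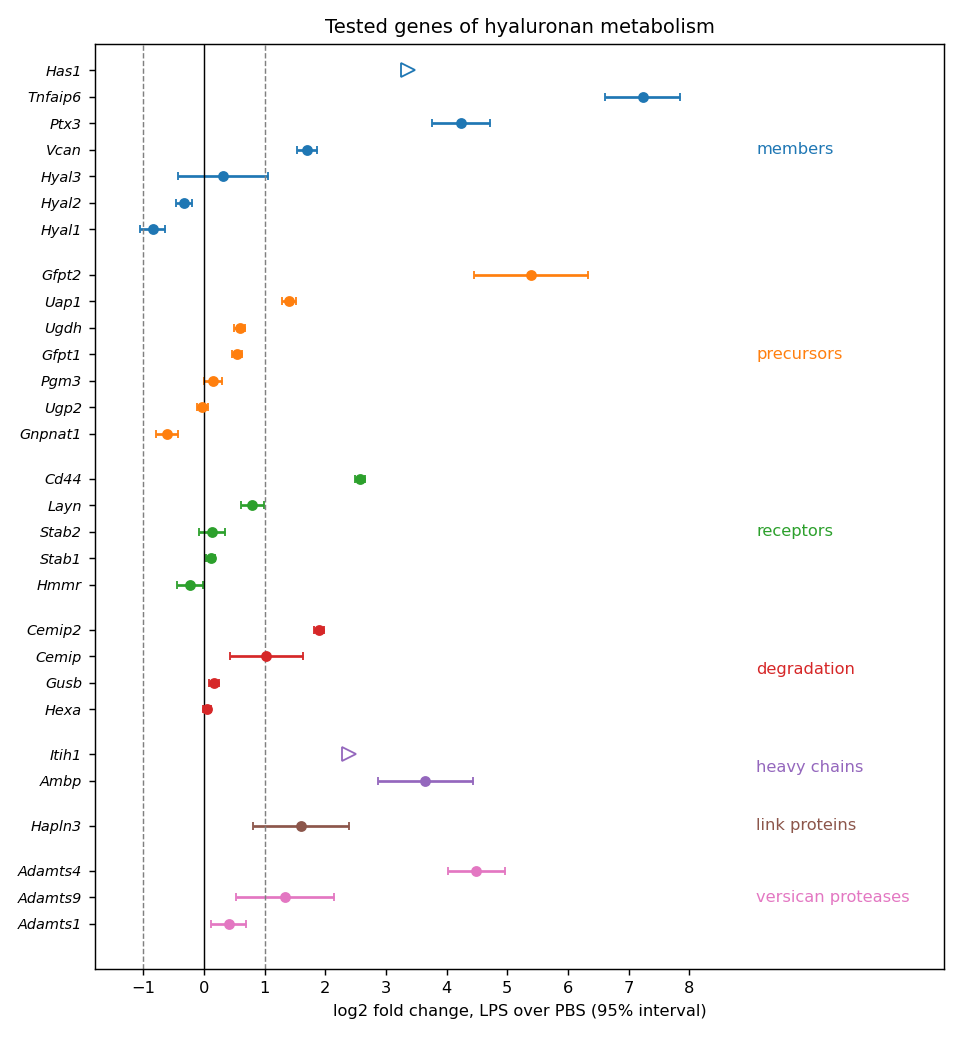
Log2 fold change, LPS over PBS (x axis), of the 7 tested hyaluronan genes and of the tested genes of the pathway list reported here, grouped by role, with points as edgeR estimates and bars as 95% intervals; open triangles mark Has1 and Itih1, which had 0 counts in PBS, at the lower bound against 3 counts per library, and dashed lines mark the fold criterion of 1. Tnfaip6, Gfpt2, Adamts4, Ptx3 and Ambp lie farthest to the right, and no gene lies past the criterion on the left with TMM scaling.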

How the data were processed

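The members and the pathway and marker lists were chosen with earlier results of these data known. Per the labels and the study's methods, the authors sequenced stranded total RNA as paired reads, aligned them to GRCm38 with HISAT2 2.1.0, processed them with SAMtools 1.17 and deposited raw counts per gene from featureCounts 2.0.0; the strand setting and the treatment of shared reads are not given in the sources used here. Of 55335 identifiers, 55154 had a GENCODE M21 symbol when versions were ignored, and coordinates are those of M21. From the counts, the 6 libraries (3 PBS, 3 LPS) were compared in R 4.3.3 with edgeR 4.0.16: filterByExpr (15687 genes), TMM, the quasi-likelihood test and Benjamini-Hochberg adjustment over all genes kept. Standard errors come from the F statistic, and counting intervals are exact conditional binomial (95%), for counting error only. The fit was tested on simulated data. Named genes were all members, pathway genes past both criteria plus up to 3 others per group, overlapping and adjacent genes, the 3 closest profiles and Tnf; Gnpnat1, Pgm3, Lyve1, Itih2, Itih3, Itih4, Itih5, genes at or near 0 and marker genes fall outside that rule and were added with their values known. A gene of the pathway list that was counted is not reported here by name. Alternatives were other scalings and filters, DESeq2 1.42.0, limma 3.58.1 voom, a replicate block and leaving out each library. Leave-one-out values of single pathway genes were added with the results known. The labels call equal replicate numbers a batch, which pairs them; deviations of same-numbered libraries correlated at -0.0139, 0.0822 and 0.0387 across genes.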

Additional observations from a re-analysis of the deposited data

How the results depend on the processing

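Direction held for each tested member under every alternative that kept it in the test, except Hyal3, whose log2 fold change was -0.089 with scaling by library size alone (0.31 with TMM). The calls of Has1, Tnfaip6, Ptx3 and Vcan held wherever these genes were tested. Requiring 10 counts in every library left 1 called member (Vcan, as the others were not tested), 4 called pathway genes and 2168 called genes in all, against 4, 10 and 3277. With adjusted p alone, 17 pathway genes and 10626 genes in all passed. With scaling by library size alone Hyal1 became a fall (-1.25), and 29.1% of all called genes were rises, against 50.4% with TMM and 42.6% with upper quartile scaling. Leaving out each library gave 4 called members throughout, 9 to 10 pathway genes and 3370 to 3420 genes in all. The replicate block, which follows the labelled batch, gave 4 members, 10 pathway genes and changed no other member's call. Counts at or near the floor limit Has2, Has3, Hyal3 and the PBS level of Tnfaip6.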

Other observations

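Of 12145 other protein-coding genes tested, the 3 whose profile over the 6 libraries lay nearest to that of Vcan, the called member with the highest mean CPM over all libraries, were Chaf1b, Lilr4b and Lztfl1. The Euclidean distances between log2 CPM profiles, each centred on its own mean, were 0.0373, 0.0822 and 0.0928. Their log2 fold changes were 1.68, 1.66 and 1.70, beside 1.70 for Vcan. With 2 groups of libraries, such a likeness reflects mainly a like fold change.

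Around the other members, the adjacent tested genes beside Has2 and Vcan also included rises. Zhx2, 1000125 bp from Has2, rose by 1.42 on the log2 scale (SE 0.09, edgeR adjusted p = 2.35e-10), and Edil3, 332088 bp from Vcan, rose by 1.39 (SE 0.10, edgeR adjusted p = 1.29e-09). Edil3 encodes an extracellular integrin ligand. On the other side of Vcan, Xrcc4 at 31517 bp had a log2 fold change of 0.31 (SE 0.07, edgeR adjusted p = 8.43e-04).

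Among the marker genes, the 4 dendritic cell markers Flt3, Zbtb46, Cd209a and Xcr1 all rose, and their summed level was 1.37 to 1.67 CPM in PBS and 5.36 to 6.55 CPM in LPS libraries. Cd209a had 8, 8 and 10 counts in PBS libraries and Xcr1 had 2, 1 and 2. Both entered the test only through the LPS libraries, so they had to differ to be tested at all. None of the 5 neutrophil markers that could be tested and none of the 4 monocyte markers rose or fell by both criteria, and of the 3 lymphocyte markers none had enough counts to be tested. The endothelial marker Cdh5 rose, while Kdr did not pass the fold criterion. The part of these genes in the results on hyaluronan genes was not tested.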
